A study of Mus musculus with 25 samples.

Results

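The genes described here are 38 splicing factor genes of mouse embryonic stem (ES) cells: SR proteins, heterogeneous nuclear ribonucleoproteins (hnRNPs), the paraspeckle proteins and a few regulators that act with them. They were taken as the rows of the count table that carry these gene symbols, 38 of 48440 genes in all, and each of the 38 had a row. The set was picked with measured values in view, since *Sfpq* was more than 2-fold higher in every edited clone than in any unedited library. Values of the clones set against unedited cells are therefore a description without a test. The order of doses within unedited cells and the differences among clones were not used in the choice. For *Sfpq* itself, however, the choice bounded the value of every dose library and every clone. Its results with dose and among clones are therefore not free of the choice.

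RNA of E14 cells was sequenced in bulk from its 3′ end as 25 libraries, with molecules counted by unique molecular identifiers (UMIs). E14 is a line of mouse ES cells that needs no feeder layer, and it was kept in serum with leukemia inhibitory factor. The first 10 libraries came from unedited wild-type cells that were exposed for 48 h to CHIR99021, a GSK3β inhibitor that stabilizes β-catenin, at 0, 2.5, 5, 7.5 or 10 µM, with 2 libraries per dose. The other 15 libraries came from 15 clones that received no inhibitor, each heterozygous for 1 of 11 knock-in mutations in the degron of β-catenin, encoded by *Ctnnb1*: S37A, S37C, S37F, S37Y, T41A, T41I, T41N, T41S, S45C, S45F and S45P. S37F, T41A, T41I and S45F were each carried by 2 clones and the other mutations by 1 clone. Every edited line is a single clone that passed through insertion of a puroΔTK selection cassette and its replacement. No clone without a mutation was analysed here, so mutation, cloning and any difference in handling cannot be told apart in a comparison with unedited cells.

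Mutations were ordered by the mutational effect score (MES), a reporter-based measure of β-catenin signaling. Clones with S37A, S37C, S37F, S37Y, T41A or T41I are called strong here (9 clones), S45F or S45P medium (3 clones), and T41N, T41S or S45C weak (3 clones). These categories coincide with the 3 clusters that the study drew from the transcriptomes of these same clones, so they are not fully independent of the expression values.

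SR proteins bind exonic enhancer sequences through RNA recognition motifs and recruit the splicing machinery through domains rich in arginine and serine, which the Clk kinases phosphorylate. hnRNPs coat nascent transcripts and often repress splice sites, and Sfpq, Nono and Pspc1 form dimers that build paraspeckles on the long non-coding RNA Neat1. Many of these genes are known to hold the level of their own mRNA in check through poison exons or retained introns that send the transcript to nonsense-mediated decay (NMD).

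Libraries held 306157 to 2083398 counts in unedited cells and 495616 to 2025273 in clones. Levels are given in CPM, counts scaled to a common library total. A gene without a count could still have had 3 in expectation, or 1.44 to 9.80 CPM across libraries, and such limits cover counting error only. Each of the 38 genes averaged 10 CPM or more over the 25 libraries, so none was lost to a filter on low values. The least covered, *Hnrnph2*, had 2 to 22 counts per library and *Sfpq* had 29 to 1220. Mitochondrial genes took 0.485 to 1.46% of counts in unedited cells and 1.53 to 2.52% in clones, without overlap, and the part of this shift in the values below was not tested. The 6 ES cell markers summed to 1664 to 2356 CPM in unedited cells and 1089 to 3350 CPM in clones, and none was at 0 in a library, with *Pou5f1*, which has near-identical copies in the genome, lowest at 9.05 to 28.8 CPM. The 10 markers of differentiated cells summed to 83.1 to 212 CPM and 91.4 to 292 CPM, and *Gata6*, *Gata4*, *Sox17*, *Foxa2*, *Mixl1*, *Sox1* and *Pax6* were at 0 in some libraries. In bulk RNA, fewer cells of a type and less RNA per cell cannot be told apart.

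Promoter windows of 5 genes are shown first, because their transcripts stood farthest apart between clones and unedited cells: the 4 with the largest ratios and *Clk3*, which went the opposite way. Each runs from 250 bases before to 50 bases after the annotated start, 5′ to 3′ on the strand of the gene, from RefSeq on GRCm38.p6. *Sfpq* lies at chr4:127021051-127021350 on the plus strand, *Srsf2* at chr11:116853045-116853344 on the minus strand, *Srsf6* at chr2:162931258-162931557 on the plus strand, *Srsf3* at chr17:29032410-29032709 on the plus strand and *Clk3* at chr9:57765065-57765364 on the minus strand. Capitals mark CCAAT or its reverse complement ATTGG.
Sfpq: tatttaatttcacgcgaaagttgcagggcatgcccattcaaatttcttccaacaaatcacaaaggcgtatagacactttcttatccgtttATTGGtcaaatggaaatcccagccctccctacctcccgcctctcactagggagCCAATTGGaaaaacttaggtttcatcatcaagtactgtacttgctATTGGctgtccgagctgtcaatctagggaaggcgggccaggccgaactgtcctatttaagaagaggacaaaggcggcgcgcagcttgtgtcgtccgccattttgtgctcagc
Srsf2: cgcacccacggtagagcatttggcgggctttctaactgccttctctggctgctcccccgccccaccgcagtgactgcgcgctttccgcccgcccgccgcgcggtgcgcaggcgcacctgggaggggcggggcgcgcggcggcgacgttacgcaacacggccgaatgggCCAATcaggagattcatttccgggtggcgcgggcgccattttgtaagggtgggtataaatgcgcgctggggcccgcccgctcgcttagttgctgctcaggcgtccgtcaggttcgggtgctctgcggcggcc
Srsf6: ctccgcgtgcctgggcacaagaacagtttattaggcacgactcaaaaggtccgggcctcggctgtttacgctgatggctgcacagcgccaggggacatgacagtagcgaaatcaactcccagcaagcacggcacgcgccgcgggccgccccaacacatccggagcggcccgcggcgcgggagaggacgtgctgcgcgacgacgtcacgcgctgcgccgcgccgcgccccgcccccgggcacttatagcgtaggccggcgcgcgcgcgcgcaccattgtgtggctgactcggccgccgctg
Srsf3: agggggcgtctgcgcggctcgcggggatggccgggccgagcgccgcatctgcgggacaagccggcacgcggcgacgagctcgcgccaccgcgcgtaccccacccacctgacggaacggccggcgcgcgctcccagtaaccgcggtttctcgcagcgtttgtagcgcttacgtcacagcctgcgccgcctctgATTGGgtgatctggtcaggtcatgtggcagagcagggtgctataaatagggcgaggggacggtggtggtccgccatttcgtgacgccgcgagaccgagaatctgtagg
Clk3: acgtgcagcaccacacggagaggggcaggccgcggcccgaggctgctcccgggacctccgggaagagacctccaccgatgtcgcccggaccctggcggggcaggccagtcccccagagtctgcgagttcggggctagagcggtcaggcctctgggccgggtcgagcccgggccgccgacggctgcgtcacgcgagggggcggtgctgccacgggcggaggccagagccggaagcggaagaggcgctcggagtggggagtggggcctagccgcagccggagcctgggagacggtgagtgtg
The *Sfpq* window held 4 matches, of which a CCAAT and an ATTGG share bases, the *Srsf2* and *Srsf3* windows held 1 each, and the *Srsf6* and *Clk3* windows held none. The *Sfpq* window had 48.0% G and C, against 68.3 to 74.7% in the other 4.

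Of the 38 genes, 36 had a promoter entry, and *Clk1* and *Rbm3* had none. The motifs, chosen after the expression values were seen, were searched on both strands. CCAAT was present in 23 of the 36 (63.9%), against 41.1% of 27025 genes and 37.4% of all 32851 promoters of the same length. It was found in 8 of the 14 genes that were higher in every clone and in 15 of the other 22. The E-box CACGTG was present in 7 of 36 (19.4%), against 8.09% of genes and 7.15% of promoters. The TATA box TATAAA was present in 4 of 36 (11.1%), against 15.7% of genes and 13.6% of promoters, and its carriers *Srsf2*, *Srsf3*, *Hnrnpab* and *Hnrnpm* were all among those 14. The TCF/LEF core CTTTGAT was present in 0 of 36, against 4.29% of genes and 3.73% of promoters. The background took every gene with a promoter entry, whether or not it was expressed in these cells. Median G and C content was 65% over the 49 promoters of these genes and 52.7% over all promoters, and its part in the shares above was not tested. A match or its absence describes these letters in these windows only.

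Across clones, 14 of the 38 genes were higher in every clone than in every unedited library, 1 was lower in every clone, and 23 overlapped. Over all 9046 genes that averaged 10 CPM or more, 5.06% were higher without overlap and 3.31% were lower. These genes were not matched to the 38 on level, so counting error, which affects overlap, was not made equal. The median difference of clones from unedited cells, on the log2 (CPM + 1) scale, was 0.50 over the 38 genes and 0.08 over all genes. Together the 38 genes took 0.915 to 1.08% of counts in unedited libraries, with a median of 0.998%, and 1.21 to 1.65% in clones, with a median of 1.47%. These counts use the contrast that chose *Sfpq* and are given as a description. With every library thinned to the depth of the smallest, 8 of the 38 genes (21.1%) were higher without overlap, and the share over all genes fell as well, to 142 of 9035 (1.57%). Against the 2 untreated libraries alone the median difference was 0.34 over the 38 genes and 0.06 over all genes. Ratios below divide the mean CPM of clones by that of all 10 unedited libraries, with the doses pooled, unless stated otherwise.

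**Figure D1:**
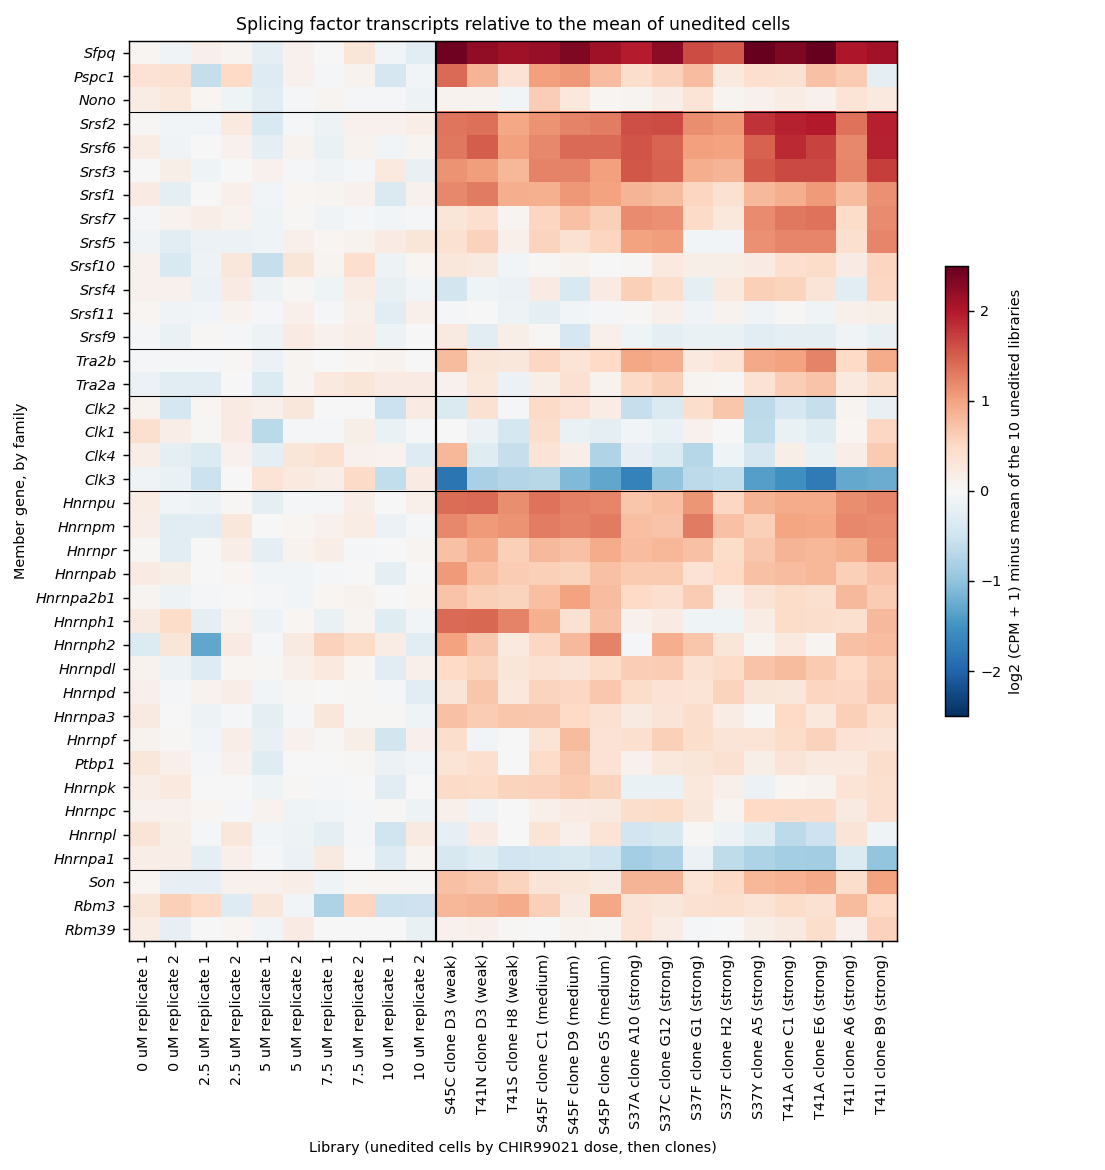
Levels of the 38 splicing factor genes (rows, grouped by family) in the 25 libraries (columns), as log2 (CPM + 1) minus the mean of the 10 unedited libraries, with red above and blue below that mean. *Sfpq* is red in each of the 15 clones and *Clk3* is blue in each.

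*Sfpq*, a paraspeckle protein that also acts in splicing and transcription, stood farthest apart. It was measured at 82.8 to 123 CPM in unedited libraries (median 102 CPM) and at 290 to 603 CPM in clones (median 458 CPM). The groups did not overlap: the lowest clone, S37F clone H2, was 2.36-fold above the highest unedited library, the second at 7.5 µM. The means were 101 ± 11.9 CPM (SD, n = 10) and 458 ± 89.6 CPM (SD, n = 15), so the ratio was 4.56 against all unedited libraries and 4.66 against the 2 untreated libraries. Over all genes, 4 (0.0442%) were more than 2-fold separated in this way: *Sfpq*, *Myc*, *Mat2a* and *Zfp936*.

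The *Sfpq* gene spans chr4:127021324-127037013 on the plus strand in GENCODE M21 (GRCm38). An annotated gene on the same strand, *Gm12940*, shares exon sequence with it and received 0 to 7 counts per library. The partners of Sfpq in paraspeckles did not show such a gap. *Nono* was at 217 to 314 CPM in unedited libraries and 248 to 400.4 CPM in clones, and 3 of 15 clones exceeded every unedited library. *Pspc1* was at 20.1 to 44.2 CPM and 26.2 to 84.5 CPM, and 9 of 15 clones exceeded every unedited library. Both therefore overlapped between groups. Their scaffold RNA *Neat1* was at 12.8 to 62.4 CPM in unedited cells and 23.2 to 112 CPM in clones, also with overlap.

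Among the 10 SR proteins, *Srsf1*, *Srsf2*, *Srsf3* and *Srsf6* were higher in every clone. *Srsf2*, which binds exonic enhancers and itself carries a poison-exon circuit, was at 174 to 271 CPM in unedited libraries (median 229 CPM) and 447 to 906 CPM in clones (median 586 CPM), a ratio of 2.80. *Srsf6* was at 149.7 to 198 CPM (median 179.5 CPM) and 350.2 to 668 CPM (median 469 CPM), a ratio of 2.701. *Srsf3*, the smallest SR protein, was at 284 to 382 CPM (median 319 CPM) and 576 to 1074 CPM (median 764 CPM), a ratio of 2.46. All 3 were lowest among clones in a T41S or S37F clone, and even these exceeded the highest unedited library, by 1.51- to 1.77-fold. *Srsf1*, a general activator of splice site choice, was at 137 to 204 CPM and 231 to 438 CPM, a ratio of 1.90. *Srsf7*, an adaptor for mRNA export, just missed separation, with 14 of 15 clones above every unedited library and T41S clone H8 at 394 CPM below the highest unedited value of 424 CPM.

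The other SR protein genes overlapped. *Srsf5* was at 179.7 to 266 CPM in unedited libraries and 206 to 509 CPM in clones, with 12 clones above every unedited library. *Srsf4*, *Srsf9*, *Srsf10* and *Srsf11* had mean ratios of 0.922 to 1.13. *Srsf4* nevertheless spread on both sides in clones, at 75.4 to 159 CPM against 91.5 to 119.7 CPM in unedited libraries, with 9 clones above and 4 below every unedited library. *Srsf9* was at 102 to 159.9 CPM in clones and 121 to 157 CPM in unedited libraries, with 1 clone above and 9 below. The SR-like enhancer-binding proteins Tra2a and Tra2b followed the same split. *Tra2b* was at 237 to 281 CPM in unedited libraries and 314 to 626 CPM in clones without overlap, whereas *Tra2a* was at 155 to 243 CPM and 178 to 320 CPM with overlap.

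The Clk kinases, which phosphorylate SR proteins and release them from nuclear speckles, did not share this direction. *Clk3* was the single gene of the 38 that was lower in every clone, at 32.7 to 70.3 CPM in unedited libraries (median 53.4 CPM) and 13.6 to 32.6 CPM in clones (median 20.7 CPM), a ratio of 0.437. Its groups nearly touched, since the highest clone, S37F clone H2, lay 0.997-fold from the lowest unedited library, the first at 10 µM. *Clk1*, *Clk2* and *Clk4* had ratios of 0.950, 1.00 and 0.976 and overlapped. *Clk3* shares exon sequence with *Edc3* on the opposite strand, as 14 of the 38 genes do with some gene on that strand and 4 with one on their own, and whether counting used strand is not given in the sources used here.

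**Figure D2:**
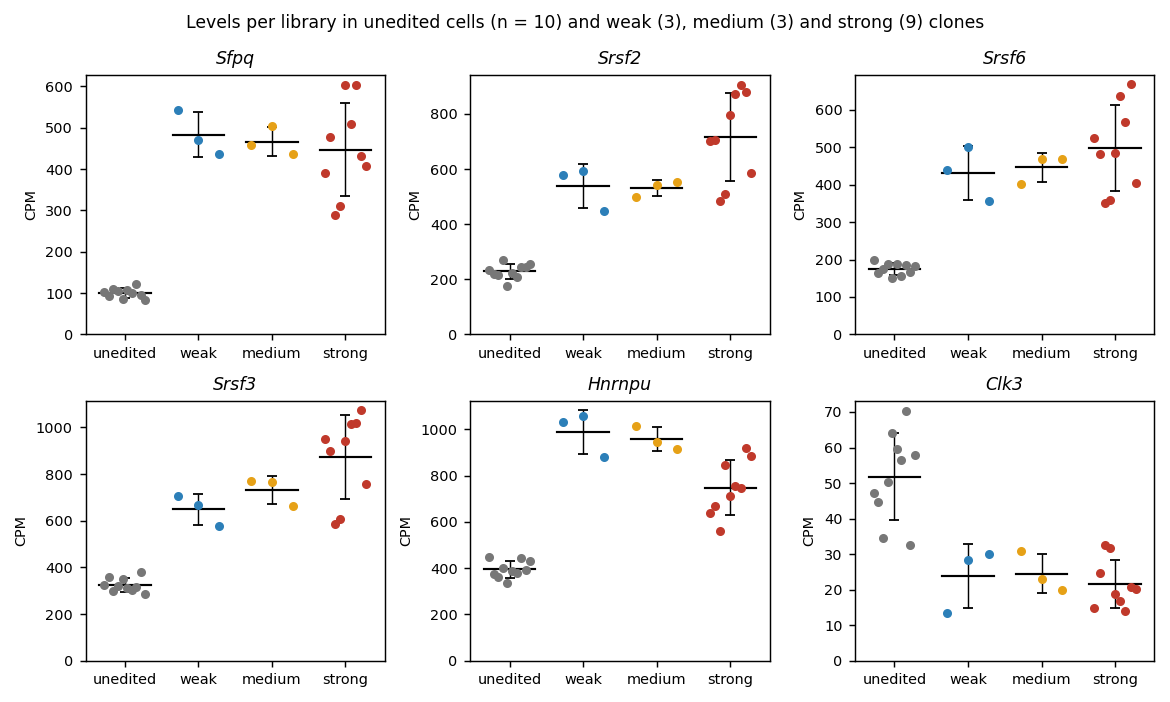
CPM per library (points) of *Sfpq*, *Srsf2*, *Srsf6*, *Srsf3*, *Hnrnpu* and *Clk3* in the 10 unedited libraries and the 3 weak, 3 medium and 9 strong clones, with the mean (line) and SD (bar) of each group. The first 5 genes lie higher in all clone groups than in unedited cells, and *Clk3* lies lower.

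Of the 16 hnRNP genes, counted with *Ptbp1* (hnRNP I), 7 were higher in every clone: *Hnrnpa2b1*, *Hnrnpab*, *Hnrnpd*, *Hnrnpdl*, *Hnrnpm*, *Hnrnpr* and *Hnrnpu*. *Hnrnpu*, which binds chromatin-associated RNA, was at 334 to 446 CPM in unedited libraries (median 389 CPM) and 561 to 1057 CPM in clones (median 879.5 CPM), a ratio of 2.12. *Hnrnpm*, a splicing repressor and activator, was at 142 to 212 CPM and 264 to 431 CPM, a ratio of 2.08. The other 5 had smaller ratios, from 1.39 for *Hnrnpd* to 1.74 for *Hnrnpr*. *Hnrnpa2b1* lay just inside the boundary, its lowest clone 1.03-fold above the highest unedited library, and *Srsf7* lay just outside it at 0.930-fold.

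*Hnrnpa1*, a widely acting splicing repressor, went the other way without full separation. It was at 402 to 587 CPM in unedited libraries (median 516 CPM) and 251 to 454 CPM in clones (median 354 CPM), a ratio of 0.672. In 13 of 15 clones it was below every unedited library. *Hnrnpl* overlapped with a ratio of 0.946, and *Hnrnpa3*, *Hnrnpc*, *Hnrnpf*, *Hnrnph1*, *Hnrnph2*, *Hnrnpk* and *Ptbp1* overlapped with ratios of 1.21 to 1.56. Against the 2 untreated libraries the ratio of *Hnrnpl* was 0.815, and the others ran from 1.06 for *Hnrnpk* to 1.55 for *Hnrnph2*. Several hnRNP genes, *Hnrnpa1* among them, are known to have processed pseudogenes, and how reads that match several copies were assigned is not given in the sources used here, so their levels carry this uncertainty.

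The remaining 3 genes encode other RNA-binding proteins. *Son*, a scaffold of nuclear speckles, was at 187 to 242 CPM in unedited libraries and 253 to 436 CPM in clones without overlap. *Rbm39*, a U2AF-related factor, was at 324 to 430 CPM and 359 to 557 CPM. *Rbm3*, a cold-inducible protein, was at 13.8 to 37.2 CPM and 28.4 to 47.9 CPM. The latter 2 genes overlapped between groups.

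Other lists of genes were set beside these in the same contrast. Of 36 snRNP and spliceosome core genes, 5 were higher without overlap and 0 lower. Of 44 other nuclear RNA-binding proteins that averaged 10 CPM or more, 5 were higher and 0 lower. SR protein kinases gave 0 higher of 4, other paraspeckle and nuclear speckle components 1 of 8, heat shock and cold-inducible genes 2 of 8, immediate early genes 1 of 5, ES cell markers 0 of 6 and markers of differentiated cells 0 of 4, and none of these lists had a gene that was lower without overlap. Their median log2 differences lay between 0.22 and 0.36, except 0.70 for immediate early genes and -0.20 for markers of differentiated cells.

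Among single genes of those lists, the speckle RNA *Malat1* was at 875 to 3392 CPM in unedited libraries and 623 to 1751 CPM in clones, a ratio of 0.532 with overlap. *Cirbp*, a cold-inducible relative of *Rbm3*, had a ratio of 0.783 and *Matr3* 1.12, both with overlap.

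Annotated transcripts of the 38 genes were counted in GENCODE M21. At least 1 transcript marked for NMD was present in 28 of 38 genes (73.7%), against 30.2% of 9041 genes that averaged 10 CPM or more. At least 1 transcript marked as a retained intron was present in 30 of 38 (78.9%), against 62.4%. The 38 genes also had more annotated transcripts, with a median of 10 against 5. An NMD transcript was annotated for 11 of the 14 genes that were higher in every clone and for 17 of the other 24. *Sfpq*, *Srsf10*, *Hnrnpab*, *Hnrnpf*, *Hnrnph1* and *Hnrnph2* had none of either kind in this annotation. Counts per gene from 3′ tags do not separate productive from NMD or intron-retaining transcripts, so which isoforms differed cannot be read from these data.

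The dose series asked whether GSK3β inhibition in unedited cells moved the same genes. Of the 38 genes, 2 rose with CHIR99021 and 0 fell (edgeR's quasi-likelihood test on dose, Benjamini-Hochberg adjusted p under 0.05), against 5.89% of 10033 genes that rose and 6.63% that fell. The share of called genes in either direction was 12.5%, so 2 of 38 does not exceed the background. Without adjustment, 2 rose and 8 fell at p under 0.05, and the share over all genes at this threshold was not computed. The lower count was 2 without the first or the second library at 0 µM or the first at 10 µM. The median change from 0 to 10 µM was -0.04 over the 38 genes and 0.01 over all genes, in log2 units. The labels do not say whether the 2 libraries of a dose came from separate cultures, so these p-values measure only the spread between libraries.

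*Tra2a* was at 177 and 161 CPM at 0 µM, 162 and 197 CPM at 2.5 µM, 155 and 205 CPM at 5 µM, 231 and 243 CPM at 7.5 µM, and 225 and 225 CPM at 10 µM. Both libraries at 7.5 and 10 µM lay above all libraries at lower doses. It rose by 0.50 ± 0.13 (SE, log2 change from 0 to 10 µM, edgeR adjusted p = 0.0105). *Srsf5* was at 203 and 179.7 CPM at 0 µM, 197 and 197 CPM at 2.5 µM, 201 and 237 CPM at 5 µM, 223 and 230.5 CPM at 7.5 µM, and 248 and 266 CPM at 10 µM. The 10 µM libraries were the highest. It rose by 0.42 ± 0.12 (edgeR adjusted p = 0.0178), but the adjusted p was 0.0720 without the second library at 0 µM and 0.0968 without the second at 10 µM.

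*Sfpq* was at 103 and 93.6 CPM at 0 µM, 109 and 104 CPM at 2.5 µM, 85.5 and 108 CPM at 5 µM, 101 and 123 CPM at 7.5 µM, and 94.7 and 82.8 CPM at 10 µM. No order by dose was visible, and the log2 change was -0.06 ± 0.16 (edgeR adjusted p = 0.866). The choice of the set kept every unedited library well below every clone in *Sfpq*, which limited how far it could rise with dose. The SR genes with the largest ratios in clones had small estimates as well, with 0.07 ± 0.14 for *Srsf2*, -0.08 ± 0.13 for *Srsf6* and -0.08 ± 0.13 for *Srsf3*. *Clk3* had an estimate of 0.40 ± 0.21 (adjusted p = 0.230), opposite in sign to its lower level in clones. The doses and the clones share no libraries, but whether the 2 contrasts differ was not tested.

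The share of counts on mitochondrial genes varied among unedited libraries, at 0.485 to 0.562% in 4 of them and 0.986 to 1.46% in the other 6. These 4 were also the shallowest, at 306157 to 940544 counts against 1311779 or more in the other 6. Mitochondrial share and depth therefore cannot be told apart here. With this share as a covariate, 6 of the 38 genes passed instead of 2: *Tra2a* and *Srsf5* rose, and *Clk1*, *Hnrnpab*, *Hnrnpl* and *Ptbp1* fell by 0.46, 0.26, 0.41 and 0.32 on the log2 scale. These 6 genes are 15.8% of the 38, and 15.3% of all genes passed in the same fit, so the count is at the background. In the same dose series 4 of the 6 ES cell markers fell, and of the markers of differentiated cells 2 rose and 1 fell. *Neat1* rose by 1.29 ± 0.34 (edgeR adjusted p = 0.00989), and of the other lists 3 snRNP and spliceosome core genes fell, 2 other nuclear RNA-binding proteins rose and 1 fell, 1 heat shock gene fell and 1 immediate early gene rose.

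**Figure D3:**
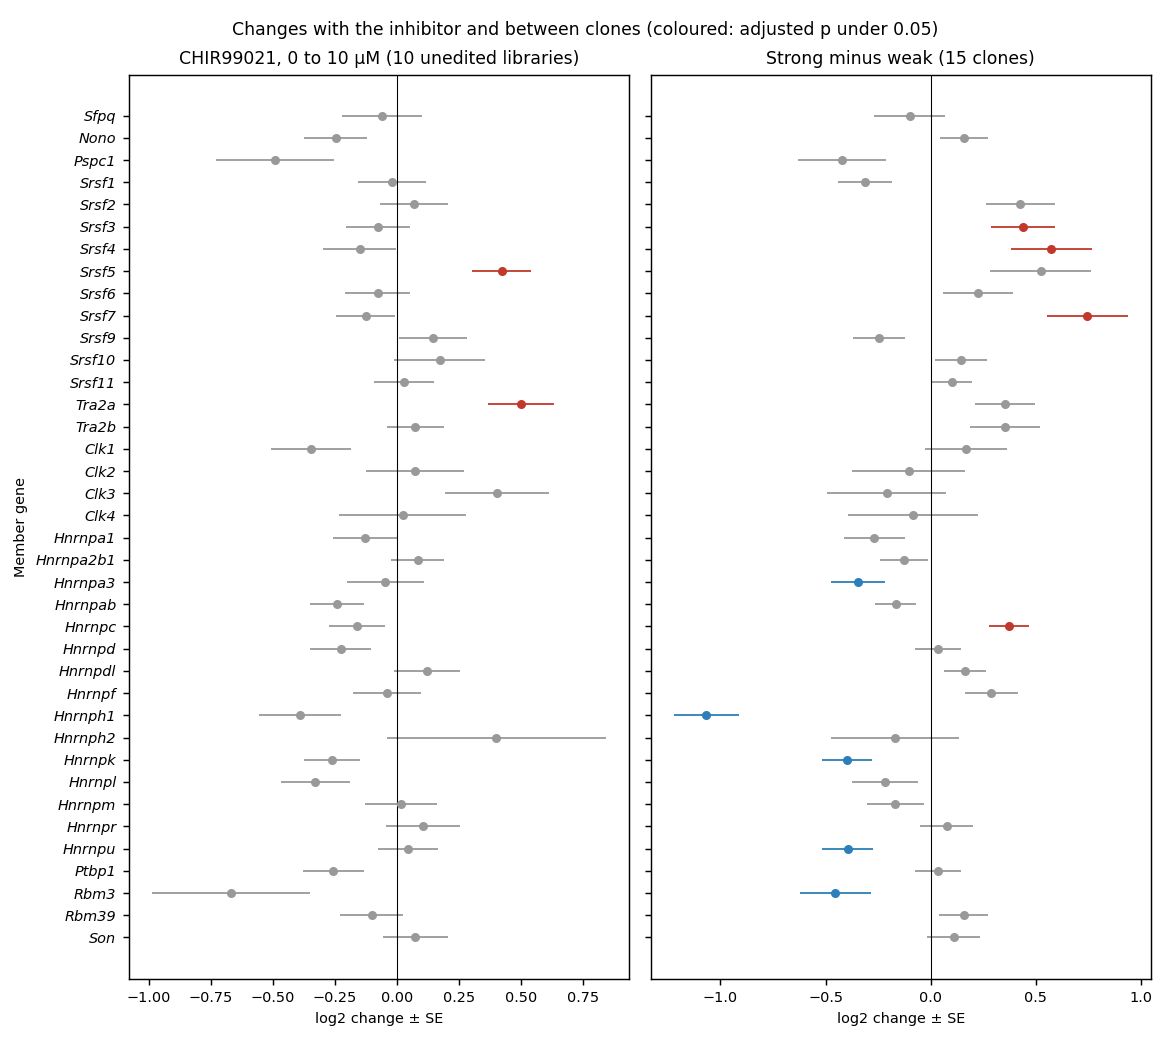
Log2 change ± SE of each of the 38 genes with CHIR99021 dose in unedited cells (left) and between strong and weak clones (right), from edgeR. Red and blue mark genes that were higher or lower with an adjusted p under 0.05, which are 2 and 0 at left and 4 and 5 at right. *Sfpq* at the top is close to 0 in both, but the choice of the set bounded its values.

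Differences among clones were then tested. Between strong and weak clones 9 of 38 genes passed, 4 higher and 5 lower in strong clones, against 13.1% of 10452 genes that were higher, 16.6% that were lower and 29.8% in either direction. The 38 genes were thus called no more often than the background. Of these 9, *Hnrnph1* alone passed when the rank of the MES replaced the categories, a fit in which 18.4% of all genes passed. The estimates of the other 8 kept their direction in that fit and are given below, as the change from the lowest to the highest rank. The number of calls also moved with single clones: it was 4 without T41S clone H8, where 15.6% of all genes passed, 5 without T41N clone D3 (24.7% of all genes) and 13 without S37F clone G1 (30.0% of all genes). The main fit treated clones that share a mutation as independent. With counts summed to 1 library per mutation, 11 of 38 genes (28.9%) passed, against 30.4% of all genes. *Srsf2*, *Srsf5* and *Tra2a* passed in addition, and *Rbm3* did not. ES cell markers moved with the same contrast, summing to 1089, 1865 and 1880 CPM in the 3 weak clones and 2594 to 3350 CPM in strong clones, with 4 of 6 higher in strong clones. Of the 7 markers of differentiated cells in the fit, *Nes*, *Tubb3* and *Pax6* were lower and *Gata6* higher in strong clones, with the neural progenitor marker *Nes* lower by -3.45 ± 0.31 on the log2 scale (edgeR adjusted p = 3.7e-08). The summed level of the 10 markers was 139 to 292 CPM in weak and 91.4 to 263 CPM in strong clones. The part of either list in the differences below was not tested.

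*Hnrnph1*, which binds G-rich elements to regulate exon use, gave the clearest difference. It was at 184, 207 and 209.8 CPM in the weak clones, at 99.995, 129 and 142 CPM in the medium clones, and at 71.0 to 136 CPM in the strong clones (median 88.7 CPM). Unedited libraries were at 62.1 to 106 CPM (median 76.7 CPM). The 3 weak clones lay above all other libraries, and the strong clones overlapped unedited cells. The log2 difference of strong from weak clones was -1.07 ± 0.15 (SE, edgeR adjusted p = 1.8e-05), and with the rank of the MES it was -1.15 ± 0.24 from the lowest to the highest rank (adjusted p = 0.00186).

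The SR protein genes *Srsf3*, *Srsf4* and *Srsf7* were higher in strong clones. *Srsf7* was at 394, 469 and 506 CPM in the weak clones and 455 to 965 CPM in the strong clones (median 853 CPM), a log2 difference of 0.74 ± 0.19 (edgeR adjusted p = 0.00549). *Srsf4* was at 75.4, 93.8 and 96.8 CPM in weak and 85.3 to 159 CPM in strong clones (median 141 CPM), a difference of 0.57 ± 0.19 (adjusted p = 0.0279). *Srsf3* was at 576, 668 and 705 CPM in weak and 587 to 1074 CPM in strong clones (median 943 CPM), a difference of 0.44 ± 0.15 (adjusted p = 0.0350). In each of these genes the strong clones ran from within the weak range to well above it. With the rank of the MES the estimates were 0.66 for *Srsf7* (adjusted p = 0.128), 0.45 for *Srsf4* (adjusted p = 0.258) and 0.40 for *Srsf3* (adjusted p = 0.212). Among the 15 fits that left out 1 clone, *Srsf7* missed the threshold without T41S clone H8 (adjusted p = 0.0556) and *Srsf4* without this clone (0.0762) or S45C clone D3 (0.112). *Srsf3* missed it without T41S clone H8 (0.186), T41N clone D3 (0.0723) or T41A clone C1 (0.0518).

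*Hnrnpc*, which binds uridine tracts and masks splice sites, was also higher in strong clones, at 749, 792 and 876 CPM in weak and 839 to 1129 CPM in strong clones, a log2 difference of 0.37 ± 0.10 (adjusted p = 0.00581), and 0.34 with the rank of the MES (adjusted p = 0.102). *Hnrnpk* and *Hnrnpu* were lower in strong clones, by -0.40 ± 0.12 (adjusted p = 0.0141) and -0.39 ± 0.12 (adjusted p = 0.0168). *Hnrnpk* was at 791, 792 and 844 CPM in weak and 508 to 757 CPM in strong clones. *Hnrnpu* was at 879.5, 1032 and 1057 CPM in weak and 561 to 920.5 CPM in strong clones. The weak clones lay above every strong clone in *Hnrnpk* and overlapped them in *Hnrnpc* and *Hnrnpu*. With the rank of the MES the estimates were -0.41 for *Hnrnpk* (adjusted p = 0.125) and -0.41 for *Hnrnpu* (adjusted p = 0.0968). *Hnrnpk* missed the threshold without T41S clone H8 (adjusted p = 0.101), and *Hnrnpu* without S45C clone D3 (0.0703) or T41N clone D3 (0.0976), whereas *Hnrnpc* and *Hnrnph1* passed in each of the 15 fits.

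*Hnrnpa3* and *Rbm3* passed narrowly, with log2 differences of -0.35 ± 0.13 (adjusted p = 0.0427) and -0.45 ± 0.17 (adjusted p = 0.0470). They missed the threshold in 12 and 14 of the 15 fits that left out 1 clone, and the estimates with the rank of the MES were -0.28 (adjusted p = 0.246) and -0.43 (adjusted p = 0.161). *Sfpq* did not pass. It was at 438, 470 and 543 CPM in the weak clones, at 437, 458 and 505 CPM in the medium clones and at 290 to 603 CPM in the strong clones (median 433 CPM), with a difference of -0.10 ± 0.17 (edgeR adjusted p = 0.700). Weak and medium clones lay within the range of the strong ones. The choice of the set kept every clone above a bound in *Sfpq*, so this result is not free of it.

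**Figure D4:**
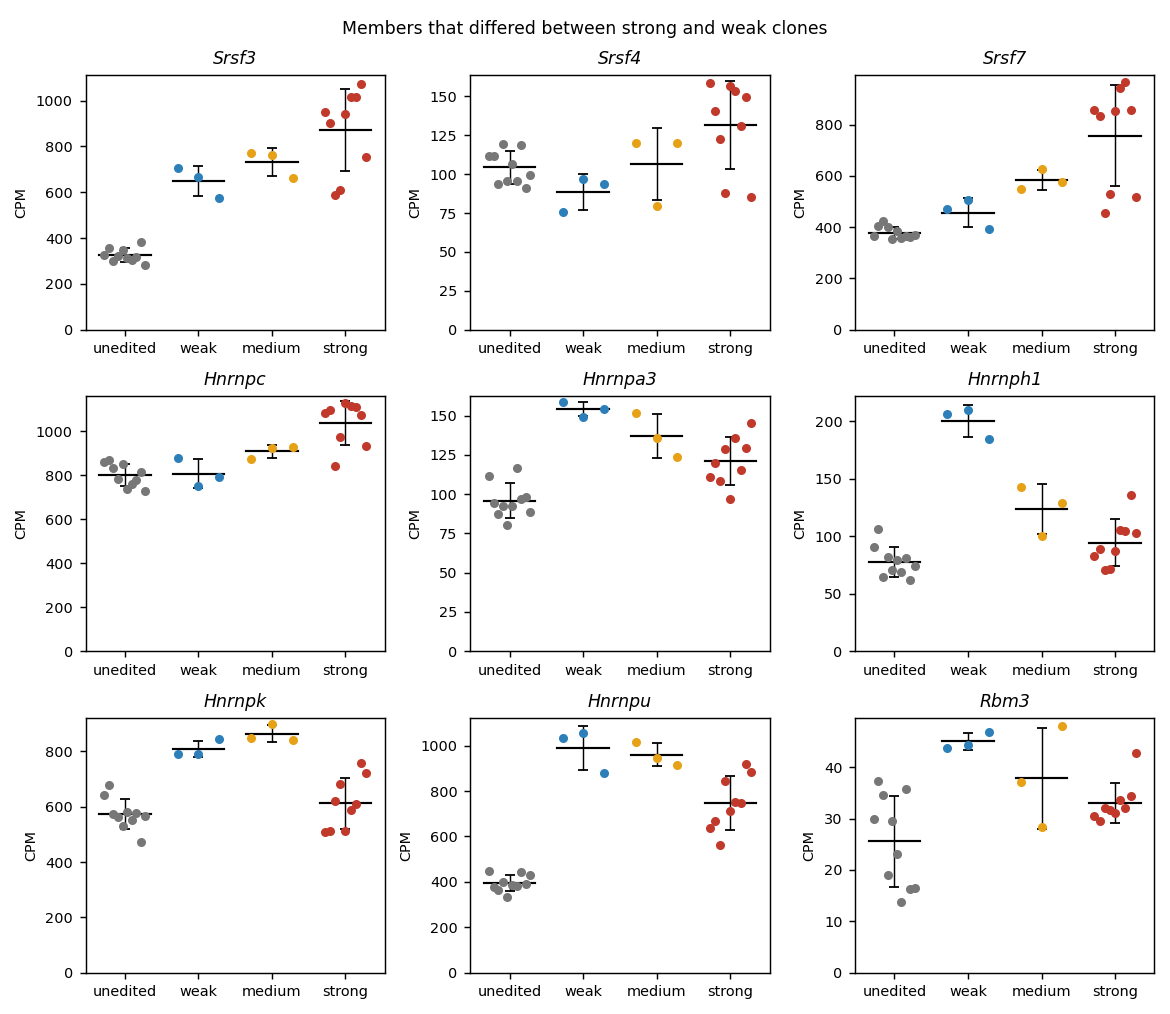
CPM per library (points) of the 9 splicing factor genes with an adjusted p under 0.05 between strong and weak clones, in unedited cells and weak, medium and strong clones, with the mean (line) and SD (bar) of each group. *Hnrnph1* is highest in the 3 weak clones, and the strong clones spread widely in *Srsf3*, *Srsf4* and *Srsf7*.

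Strong clones differed among themselves in several SR protein genes, a pattern picked out after the values were seen and not tested. *Srsf5* was at 206, 207 and 285 CPM in S37F clones H2 and G1 and T41I clone A6, and at 435 to 509 CPM in the other 6 strong clones. *Srsf7* was at 455, 529 and 518 CPM in these 3 clones and 835 to 965 CPM in the other 6. The same 3 clones were lowest among the strong clones in *Srsf2*, *Srsf3*, *Srsf4*, *Srsf6* and *Tra2b*. *Clk2*, in contrast, was at 85.4, 71.6 and 55.1 CPM in these 3 clones and 33.1 to 46.2 CPM in the other 6. Mitochondrial genes took 1.53, 1.62 and 1.96% of counts in the 3 clones and 1.79 to 2.52% in the other 6, and their part was not tested.

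Pairs of clones with the same mutation gave an estimate of the spread between independent clones. *Sfpq* was at 290 and 312 CPM in the S37F clones and 458 and 505 CPM in the S45F clones. It was at 508 and 603 CPM in the T41A clones and 433 and 409 CPM in the T41I clones. The pairs differed less than the full range of the clones, and both S37F clones were the lowest of all 15. Over the 38 genes, the median absolute log2 difference within a pair was 0.14, 0.16, 0.08 and 0.25 for S37F, S45F, T41A and T41I, against 0.24, 0.24, 0.19 and 0.27 over all genes. All genes here means those that averaged 10 CPM or more. They were not matched to the 38 on level, so counting error was not made equal.

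Strong mutations of codon 37 (5 clones) and codon 41 (4 clones) were compared last. None of the 38 genes passed (edgeR quasi-likelihood test), and 7 of 9550 genes did (0.0733%), 0.0209% higher and 0.0524% lower in codon 37 clones. At an unadjusted p under 0.05, 0 were higher and 10 lower in codon 37 clones, but the share over all genes at this threshold was not computed. The lower count was 1 without T41I clone B9, 5 without S37F clone H2 and 14 without T41I clone A6, so it hung on single clones. DESeq2 also gave 0 calls after adjustment. The median log2 difference was -0.20 over the 38 genes and 0.00 over all genes. *Hnrnph1* had the smallest p, with a difference of -0.49 ± 0.12 (adjusted p = 0.215), and *Sfpq* differed by -0.24 ± 0.18 (adjusted p = 0.726). A difference of codons in these genes was not detectable with these clones.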

How the data were processed

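Bulk mcSCRB-seq was performed on 25 libraries, and the deposited values are UMI-deduplicated read counts per gene that the authors made from reads aligned to mm10, with featureCounts 2.0.1, UMI-tools and Picard named in the submitters' processing notes, without normalization. The annotation release and strand setting of the counting are not given in the sources used here. Symbols were found for 48058 of 48440 gene IDs. From the counts, CPM were computed on total counts, with log2 values on CPM + 1. Genes that averaged 10 CPM or more formed the background of the description. Tests used edgeR 4.0.16 in R 4.3.3 (quasi-likelihood F-test fitted on all genes, TMM factors, low counts removed by filterByExpr at a minimum of 10, false discovery rate 0.05), with dose as a number in 10 unedited libraries, category in 15 clones, and codon in 9 strong clones. The scripts were tested on simulated data with 200 changed genes. Of 2-fold changes, 63, 57 and 75% were recovered for dose, category and codon, and of 1.5-fold changes 17, 19 and 26%. False calls made up 5.88, 2.56 and 7.34% of the calls. Most changes of 1.5-fold would thus be missed.

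The 38 genes, lists and tests were chosen with earlier results of these data known. All 38 genes are named, and of the other lists the counts, the 2 genes with the largest and the 2 with the smallest ratio of clones to unedited cells, and *Neat1*, *Malat1*, *Cirbp* and *Matr3*. A further gene of that rule is not reported here. Alternatives were RLE size factors, DESeq2 1.42.0, no filter, thinning, TMM-scaled CPM, untreated libraries only, a mitochondrial covariate, a replicate block, dose ranks, 1 library per mutation and leaving out each library. Unedited libraries split at 0.8% mitochondrial counts and the rank of the MES were added after the data were seen.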

Additional observations from a re-analysis of the deposited data

Results flagged for a closer look

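Among 76 pairs of a gene and a group of strong clones (5 at codon 37 or 4 at codon 41), 6 values lay far from the rest of their group by Dixon's test, where chance flags about 1 in 20 groups. In S37F clone G1, *Hnrnpa1* was at 454 CPM with the next codon 37 clone at 322 CPM, and *Hnrnpm* was at 431 CPM with the next at 296 CPM. In T41I clone A6, *Srsf2* was at 586 CPM with the next codon 41 clone at 872 CPM, and *Srsf5* was at 285 CPM with the next at 506 CPM. In T41I clone B9, *Hnrnph1* was at 136 CPM with the next at 105 CPM, and *Hnrnpr* was at 227 CPM with the next at 189 CPM. The 4 high values and the 2 low values each belong to 1 clone of a mutation that was represented by 2 clones.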

How the results depend on the processing

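The 11 genes called with dose or between strong and weak clones kept their direction under each alternative run, as did the median difference of clones from unedited cells. The median change of the 38 genes with dose turned from -0.04 to 0.02 without the first library at 0 µM. The number of genes higher in every clone was 8 with thinned counts, and the median difference was 0.34 against untreated libraries only. With dose, 6 genes passed with the mitochondrial covariate, and between strong and weak clones 1 passed with the rank of the MES; the cause was not tested. Leaving out 1 library at a time gave 14 to 15 genes higher in every clone, a *Sfpq* ratio of 4.46 to 4.68, a median difference of 0.45 to 0.51, 1 to 3 calls with dose, 4 to 13 between strong and weak clones and 0 to 0 between codons. The replicate numbers of the doses were not taken as pairs, since same-numbered deviations correlated at -0.13 to 0.12 over 10 pairs of doses, 2 of them over 0.1. The replicate block gave 2 calls among the 38 genes, as without it, and 1140 over all genes against 1256. No paired analysis was possible for the clones because the weak clones share no second number. Of the 9 genes called between strong and weak clones, *Rbm3* missed the threshold under DESeq2, without the filter, with the mitochondrial covariate and with 1 library per mutation, and *Hnrnpa3* without the filter. The rank of the dose repeats the main fit because doses are evenly spaced. Depth limits *Hnrnph2* most, at 2 to 22 counts per library.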

Other observations

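Genes of the other lists with the largest and smallest ratios of mean CPM in clones to unedited cells are given as a description, without a test. Among snRNP and spliceosome core genes, *Sf3b4* (ratio 2.00) and *Cdc5l* (1.98) had the largest ratios and *Sf3b1* (0.743) and *Sf3b2* (0.898) the smallest. *Sf3b4* was at 131 to 160.0 CPM in unedited libraries and 229 to 322 CPM in clones without overlap, whereas the other 3 overlapped. Among other nuclear RNA-binding proteins, *Syncrip* (2.23) and *Rbm27* (1.98) did not overlap, and *Hnrnph3* (0.714) and *Hnrnpul1* (0.781) did. Of the kinases that phosphorylate SR proteins, *Prpf4b* had a ratio of 1.75, *Dyrk1a* 1.21, *Srpk1* 1.14 and *Srpk2* 0.681, all with overlap. Of the paraspeckle and speckle components, *Cpsf6* (1.98) was higher in every clone, and *Rbm14* (1.63) and *Nudt21* (0.817) overlapped.

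Outside RNA processing, the chaperone gene *Hsph1* was at 27.9 to 65.3 CPM in unedited libraries and 79.5 to 209.7 CPM in clones, a ratio of 3.82, while *Hspa1b* (2.64) and *Hsp90aa1* (1.02) overlapped. *Myc* was at 7.62 to 15.8 CPM and 37.4 to 121 CPM, a ratio of 7.58, while *Egr1* (2.16), *Junb* (1.04) and *Jun* (0.647) overlapped. Of the ES cell markers, *Zfp42* (2.79), *Nanog* (1.85), *Sox2* (1.13) and *Dppa5a* (1.08) overlapped between groups. Of the markers of differentiated cells, *Tubb3* (2.71), *Gata6* (2.59), *Nes* (0.971) and *T* (0.379) overlapped as well. These ratios pool all doses in the unedited mean. With CHIR99021 dose, *T* changed by 2.74 ± 0.36 and *Tubb3* by -1.54 ± 0.28 on the log2 scale (edgeR adjusted p = 3.8e-06 and 0.000338). *Zfp42*, *Nanog*, *Sox2* and *Dppa5a* also fell with dose. For such genes the ratio does not compare clones with untreated cells.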
